A study of Mus musculus with 6 samples.

Results

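Cytosolic ribosomal protein genes were followed in the mouse mammary carcinoma line 4T-1, in 3 libraries of wild-type cells and 3 labelled as Lyplal1 knockout. These groups are so named in the sample titles, while the sample descriptions name them 4T1_NC and 4T1_sg2. The genes were chosen by name. They are the protein-coding genes of the mouse build GRCm38 whose symbol is Rpl or Rps followed by a digit, together with Rplp0, Rplp1, Rplp2 and Rpsa, without the ribosomal S6 kinases, Rps19bp1 and symbols marked as pseudogenes. The rule took 85 of the 55487 genes in the deposited count table. Of these, 43 encode large subunit proteins, 3 the stalk of the large subunit, 31 small subunit proteins and 8 paralogs or related copies of a standard subunit gene. All cells were untreated, and the Lyplal1 product is related to the acyl-protein thioesterases, which remove fatty acids from proteins. Whether libraries within a group come from separate cultures, and whether the knockout is 1 clone or a pool, is not stated in the labels, so p-values measure only the spread between these libraries. RNA was taken with Trizol and sequenced in bulk, where a different number of cells of a type and a different amount of RNA per cell cannot be told apart.

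A cytosolic ribosome joins a large subunit, which forms peptide bonds, to a small subunit, which reads the messenger RNA. Each standard ribosomal protein is present once per ribosome, apart from the acidic stalk proteins. Ribosomal protein genes of mammals are transcribed at high levels, and many of their messenger RNAs begin with a run of pyrimidines, the terminal oligopyrimidine or TOP tract, through which mTORC1 and the RNA-binding protein Larp1 control their translation. They are also known for their many processed pseudogenes, copies of the spliced messenger RNA scattered through the genome.

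Total counts ran from 16731209 to 17108975 per library, and 13022 genes passed the filter on low counts. Of these, 10711 (82.3%) were called between the groups, which means a Benjamini-Hochberg adjusted p under 0.05 in edgeR's quasi-likelihood test with TMM scaling. A total of 5382 (41.3%) were higher and 5329 (40.9%) were lower in the knockout libraries. Counts on Lyplal1 were 76, 73 and 68 in wild-type cells and 54, 48 and 58 in knockout cells. As CPM (counts scaled to a common library size) this gene was at 4.05 ± 0.212 (SD, n = 3) against 3.34 ± 0.327 (SD, n = 3). Its log2 change of -0.28 ± 0.15 (SE) was not called (edgeR adjusted p = 0.0886), and a count over the whole gene does not show an edit, so the knockout label was not checked by these values. Summed CPM of 5 mammary epithelial carcinoma markers was 3110 to 3190 in wild-type cells and 1710 to 1730 in knockout cells, with all 5 present in both. Summed CPM of 2 mesenchymal markers was 8060 to 8120 and 3720 to 3940. The epithelial and mesenchymal sums were thus lower in knockout cells, and the sums of the other 3 lists were higher. Summed CPM of 5 fibroblast markers was 67.2 to 69.9 and 166 to 179, with Lum at 0 in wild type. Summed CPM of 5 leukocyte markers was 8.28 to 8.52 and 440 to 482, with Adgre1 and Itgam at 0 in wild type. Most of the last 2 sums came from Pdgfra (64.5 and 169 CPM) and Cd68 (8.11 and 462 CPM), while Ptprc, which marks leukocytes in general, was at 0.261 ± 0.117 and 0.146 ± 0.0963 CPM (SD, n = 3 each). Col1a1, of the fibroblast list, went the other way from Pdgfra (3.65 and 1.38 CPM, log2 -1.4, edgeR adjusted p = 3.66e-05). Summed CPM of 3 endothelial markers was 0.056 to 0.223 and 0.874 to 5.72, with Kdr at 0 in wild type and the highest sum in knockout replicate 3. The part of these shifts in the results on ribosomal protein genes was not tested.

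Of the 85 genes, 81 passed the filter. Among these, 45 were higher in the knockout libraries (55.6%, where 41.3% of all tested genes were higher), 14 were lower (17.3%, where 40.9% of all tested genes were lower) and 22 were not called. With upper-quartile scaling or total counts, where the median of all genes moved by -0.13 and -0.14 on the log2 scale, 37 were higher and 24 lower, and on log2(TPM + 1), where it moved by -0.19, 28 were higher and 25 lower (31.7% and 50.7% of all genes on that scale; 35.6% and 47.5% with upper-quartile scaling). The 59 called genes were 72.8% of those tested, below the 82.3% of all genes. CPM of the groups did not overlap for the same number of genes (59, 72.8%), against 83.1% of all tested genes. The median log2 change was 0.23, against 0.00 for all tested genes, and stood 0.21 to 0.28 above the median of all genes in each alternative scaling, filter, unit, test and set of libraries that was run.

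The changes were small beside those of other genes. The median size of the log2 change was 0.32 against 0.57 over all tested genes, and the range was -0.89 to 1.72 against -10.75 to 13.42. A called change of at least 2-fold was found for 7 genes (8.64%, against 28% of all tested genes). A called change of at least 1.5-fold was found for 20 genes, 17 of them higher and 3 lower, while the other 39 called genes changed by less. The called share of all tested genes at 1.5-fold was not counted. Called or not, 25% of all tested genes were at or below a log2 change of -0.595 and 76.5% at or below 0.585. Both values are near 1.5-fold.

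**Figure D1:**
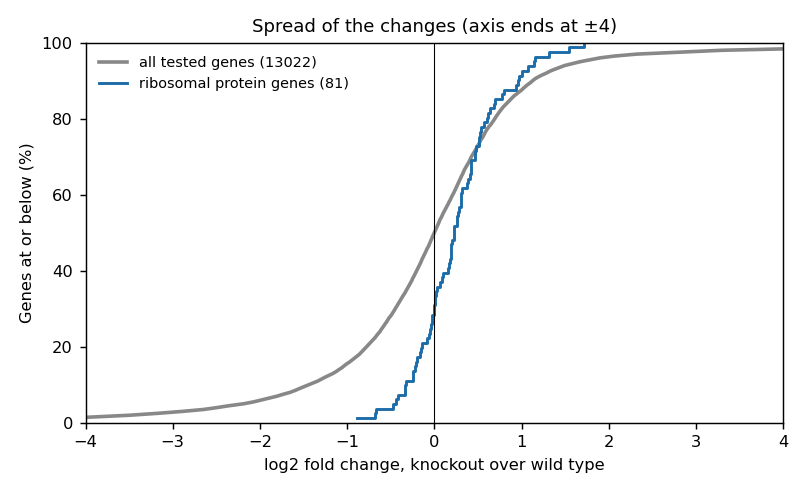
Cumulative share of genes (y axis, %) at or below each log2 fold change (x axis, knockout over wild type) for all 13022 tested genes (grey) and the 81 tested ribosomal protein genes (blue). The blue curve is steeper, running from -0.89 to 1.72, and crosses the middle at 0.23, while the grey curve crosses it at 0.00 and runs beyond both ends of the axis.

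Large subunit genes and small subunit genes were divided in similar ways. Of 43 large subunit genes, 24 rose, 8 fell and 11 were not called (55.8% higher, 18.6% lower, median log2 change 0.28). Of 31 small subunit genes, 17 rose, 5 fell and 9 were not called (54.8% higher, 16.1% lower, median 0.19). Of the 3 stalk genes, 2 rose and Rplp2 was not called (median 0.37). Of the 8 paralogs, 4 were tested, of which 2 rose, 1 fell and 1 was not called. Each subunit thus held genes that rose and genes that fell, where 41.3% of all tested genes were higher and 40.9% lower.

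**Figure D2:**
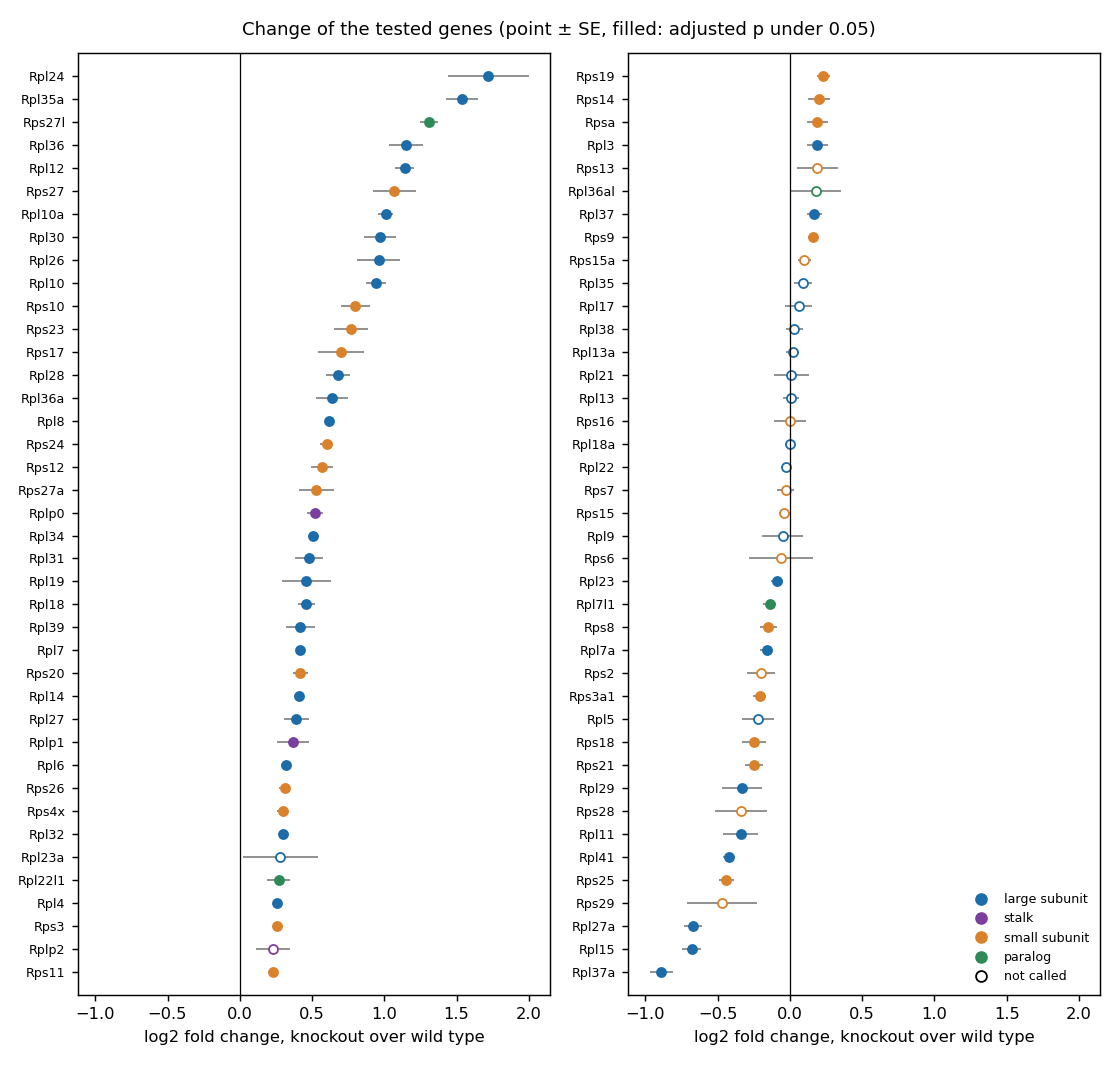
Log2 fold change, knockout over wild type (x axis), of the tested ribosomal protein genes reported here, with the SE as a bar, coloured by class. Filled points have an edgeR adjusted p under 0.05. Rpl24, Rpl35a and Rps27l stand at the top and Rpl15, Rpl27a and Rpl37a at the bottom.

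Together the 85 genes took 1.42%, 1.43% and 1.48% of all counts in wild-type cells and 1.57%, 1.57% and 1.68% in knockout cells. Every knockout library lay above every wild-type library (1.44% ± 0.033 against 1.61% ± 0.064, SD, n = 3 each). The two-sided exact permutation test gave p = 0.1, which is the smallest value that 3 libraries against 3 can reach. Measured as TPM, which divides counts by gene length before scaling, the genes held 3.74%, 3.77% and 3.90% of the total in wild-type cells and 3.94%, 3.90% and 4.16% in knockout cells, and the groups met at 3.90%.

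The share was also taken by class. Large subunit genes took 0.635% ± 0.014 of counts in wild-type cells and 0.703% ± 0.012 in knockout cells (SD, n = 3 each). Stalk genes took 0.202% ± 0.0065 and 0.248% ± 0.026. Small subunit genes took 0.592% ± 0.013 and 0.641% ± 0.027. For each of the 3 classes the libraries of the groups did not overlap (two-sided exact permutation p = 0.1). By TPM the small subunit share was 1.37% ± 0.027 and 1.35% ± 0.034, in the opposite direction and with overlapping groups (two-sided exact permutation p = 0.4). Among the wild-type libraries, replicate 3 had the highest share of counts for large subunit, stalk and small subunit genes. Knockout replicate 3 had the highest share of counts in every class. It was the highest of all 6 libraries for 36 of the 85 genes and the highest of the knockout libraries for 44. Without it, 44 genes were higher and 12 lower, with a median log2 change of 0.20.

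**Figure D3:**
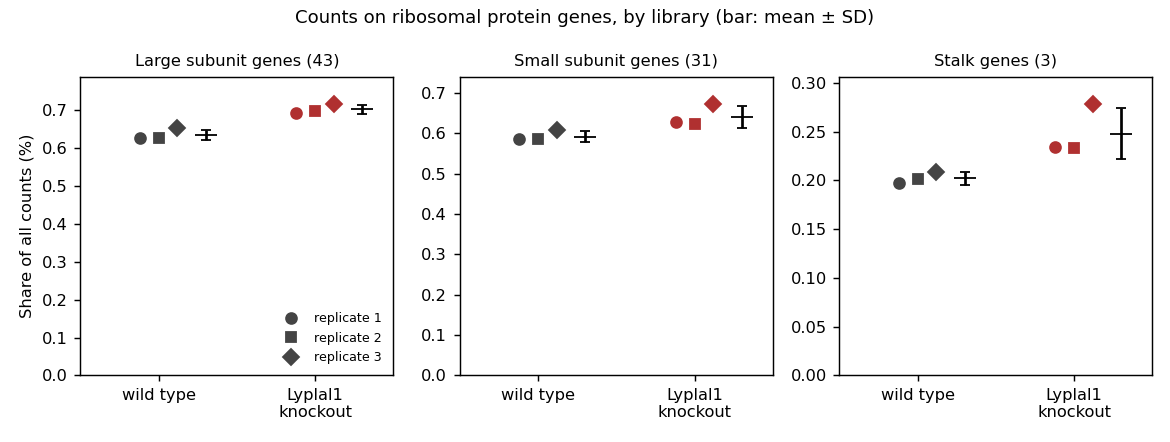
Share of all counts (y axis, %, from 0) held by the 43 large subunit, 31 small subunit and 3 stalk genes, with 1 point per library and the mean ± SD beside each group. The 3 knockout libraries lie above the 3 wild-type libraries in each panel, and knockout replicate 3 is the highest point.

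Levels differed widely between the genes. Over all 6 libraries the highest mean levels were those of Rplp1 (6300 TPM), Rpl4 (4070 TPM), Rpl8 (3690 TPM), Rps15 (3020 TPM) and Rplp0 (2860 TPM). These 5 genes held 36.6% to 37.0% of the counts on ribosomal protein genes in wild-type cells and 38.9% to 39.6% in knockout cells. At the other end, 47 of the 85 genes were under 100 TPM, and the lowest tested gene was Rps6, the small subunit protein phosphorylated by S6 kinases, at 4.91 TPM. Of the 11 genes at 1000 TPM or more, 9 rose and 1 fell, where 41.3% of all tested genes were higher and 40.9% lower.

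The listed level went with how much of a transcript is found in no other gene. Each transcript of GENCODE release M21 was read in overlapping windows of 50 bases, and a window was counted as shared if the same bases, on either strand, stand in a transcript of another gene. Of the 85 genes, 82 shared at least 1 window with another gene, and each of these 82 shared 1 with a pseudogene. Rpl7a shared windows with 120 pseudogenes, the highest number. Rpl39l and Rpl3l were among those that shared none. The 21 tested genes with under 25% unshared windows had a median of 19.8 TPM. The next 23, with 25% to 50%, had a median of 35.4 TPM. The 27 with 50% to 75% had 312 TPM and the 10 with at least 75% had 365 TPM. Across the 81 tested genes, which share libraries and depth and are not independent, Spearman's rho between the unshared share and the mean TPM was 0.56 with 50-base windows and 0.64 with 100-base windows.

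The change between groups showed little such order by rank. Spearman's rho between the unshared share and the log2 change was -0.11 across the same 81 genes, and rho between mean TPM and log2 change was -0.027. In the 4 bins, from the least to the most unshared, 11, 13, 14 and 7 genes rose and 2, 5, 6 and 1 fell. In that order 52.4%, 56.5%, 51.9% and 70% were higher, against 41.3% of all tested genes. The shares lower were 9.52%, 21.7%, 22.2% and 10%, against 40.9%. In the same order, called changes of at least 2-fold were found for 4, 1, 1 and 1 genes (19%, 4.35%, 3.7% and 10%). Among all tested genes the share with such a change was 28%. How the counting treated reads that map to several places is not given in the sources used here, so a low level of a gene with little unshared sequence cannot be told apart from reads assigned elsewhere or dropped. Exons of 39 of the 85 genes also overlap those of another gene on the genome, among them Rpl15 with Nkiras1, Rpl12 with Lrsam1, Rps25 with Ccdc84 and Trappc4, Rpl5 with Fam69a, Rps18 with Vps52, Rpl27a with the small nucleolar RNA gene Snora3 and Rpl10 with Snora70, and their values are less certain.

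**Figure D4:**
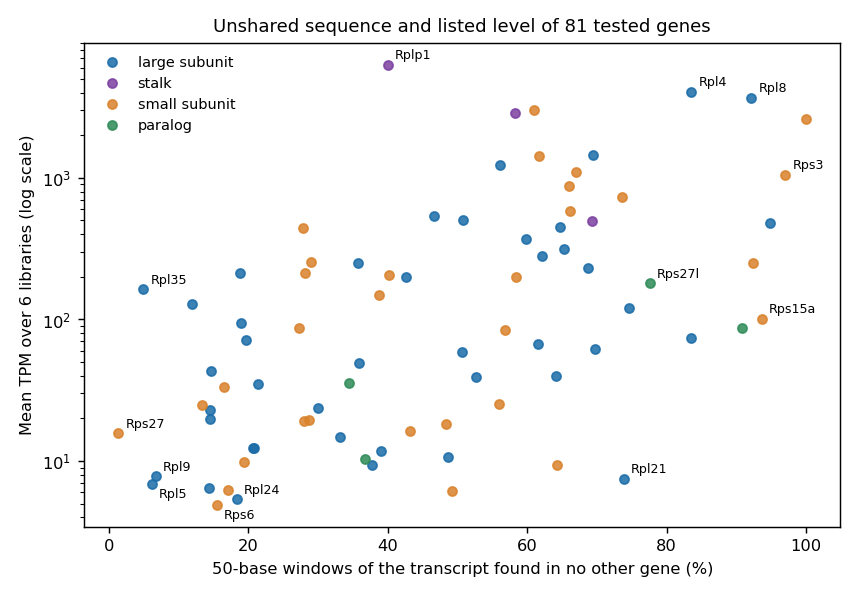
Mean TPM over 6 libraries (y axis, log scale) against the share of 50-base transcript windows found in no other gene (x axis, %) for the 81 tested genes, coloured by class. Rpl4 and Rpl8 lie at the upper right and Rps27, Rpl5, Rpl9 and Rps6 at the lower left, while Rplp1 is highest at 40.0%.

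Rps6 shows the scale of such sharing. Its first 120 coding bases are printed beside those of its processed pseudogene Rps6-ps1 on chromosome 15 (76337616 to 76338362, plus strand), from the GENCODE transcripts on GRCm38, with the only differing base in capitals.
Rps6: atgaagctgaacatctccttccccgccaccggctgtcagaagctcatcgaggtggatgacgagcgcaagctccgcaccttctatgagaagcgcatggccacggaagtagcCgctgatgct
Rps6-ps1: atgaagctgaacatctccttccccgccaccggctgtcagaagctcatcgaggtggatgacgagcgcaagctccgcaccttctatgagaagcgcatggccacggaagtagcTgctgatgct
Over 747 aligned bases the pseudogene differed from Rps6 at 14, which is 98.1% identity. Rps6-ps1 was listed with 3648 counts over the 6 libraries and Rps6 itself with 199. Rps6 was at 2.17, 1.57 and 2.25 CPM in wild-type cells and 1.5, 1.93 and 2.32 CPM in knockout cells. These ranges overlapped, and the log2 change was -0.06 ± 0.22 (SE; edgeR adjusted p = 0.817). Summed with its pseudogenes named by symbol, the change of Rps6 was 0.38 (edgeR adjusted p = 7.88e-07), in the opposite direction. Summed with pseudogenes linked by sequence it was 0.36 (edgeR adjusted p = 1.41e-06).

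At the stalk, where elongation factors dock, the scaffold Rplp0 was at 991, 960 and 1020 CPM in wild-type cells and 1340, 1360 and 1570 CPM in knockout cells. It rose 1.43-fold (log2 0.52 ± 0.058, SE; edgeR adjusted p = 1.4e-05), with no overlap. Rplp1, 1 of the acidic proteins that Rplp0 holds, was at 667, 696 and 727 CPM and at 849, 811 and 1040 CPM. Its rise of 1.29-fold (log2 0.37 ± 0.11; edgeR adjusted p = 0.0322) was also without overlap but was not called without wild-type replicate 1 (adjusted p = 0.0878), replicate 2 (0.0877) or replicate 3 (0.0695). The call was also lost with upper-quartile factors (0.23, adjusted p = 0.111), total counts (0.23, adjusted p = 0.104), no filter (0.39, adjusted p = 0.0581) and log2(TPM + 1) (0.15, adjusted p = 0.0818). Rplp2, its acidic partner, was at 217, 257 and 247 CPM and at 260, 264 and 319 CPM. The ranges of Rplp2 did not overlap but came close, and its change of 0.23 ± 0.12 was not called (edgeR adjusted p = 0.133). With the replicate number as a block it was called (0.22, adjusted p = 0.00464). Rpl12, which sits at the base of the stalk, was at 33.4, 34.0 and 35.6 CPM and at 67.5, 75.9 and 84.3 CPM. All knockout libraries thus lay far above the wild-type libraries, and Rpl12 rose 2.21-fold (log2 1.14 ± 0.066; edgeR adjusted p = 2.39e-12).

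Near the peptidyl transferase centre and the exit tunnel, the 3 large subunit genes Rpl8, Rpl4 and Rpl3 rose by different amounts. Rpl8, a core protein of the centre, was at 1010, 993 and 1020 CPM in wild-type cells and 1540, 1480 and 1630 CPM in knockout cells. The groups were well apart, with a rise of 1.54-fold (log2 0.62 ± 0.033; edgeR adjusted p = 1.58e-15), and 92.1% of its windows were found in no other gene. Rpl4, which lines the tunnel, was at 1820, 1890 and 1930 CPM and at 2200, 2280 and 2280 CPM. It rose 1.2-fold without overlap (log2 0.26 ± 0.031; edgeR adjusted p = 2.3e-08), but was at 0.05 and not called on log2(TPM + 1) in limma-trend (adjusted p = 0.122). Rpl3, another protein of the centre, was at 17.7, 16.5 and 17.2 CPM and at 18.7, 19.7 and 20.2 CPM. Its rise of 0.19 ± 0.073 on the log2 scale (edgeR adjusted p = 0.0194) was small and was not called without wild-type replicate 2. It was at 0.06 with upper-quartile factors, 0.05 with total counts, 0.08 and 0.07 with pseudogenes added by symbol and by sequence, and -0.02 on log2(TPM + 1), and was called in none of these, nor by DESeq2 (adjusted p = 0.0848).

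Rpl10a, Rpl10 and Rpl24, which meet transfer RNA or take part in joining the subunits, were among the genes with larger rises. Of their windows, 11.9%, 14.6% and 18.3% are unshared. Rpl10a, which forms the side stalk beside the exit site, was at 56.6, 51.1 and 52.8 CPM in wild-type cells and 101, 105 and 117 CPM in knockout cells. It rose 2.01-fold, with the groups far apart (log2 1.01 ± 0.053; edgeR adjusted p = 5.78e-15). Rpl10, a late-joining protein needed before subunits can join, was at 16.4, 15.7 and 14.7 CPM and at 30.5, 28.6 and 30.5 CPM. It rose 1.91-fold without overlap (log2 0.94 ± 0.069; edgeR adjusted p = 1.7e-12). The largest fitted change of all was that of Rpl24, a protein of a bridge to the small subunit, named here after its values were seen because it lies below the 5 CPM used to choose examples. Rpl24 had 8, 9 and 19 counts in wild-type cells and 40, 33 and 34 counts in knockout cells, again without overlap (log2 1.72 ± 0.28; edgeR adjusted p = 3.75e-06).

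Other large subunit genes with large rises had low to moderate counts. Rpl35a, a gene mutated in some people with Diamond-Blackfan anaemia, was at 5.07, 5.37 and 4.55 CPM in wild-type cells and 13.4, 13.5 and 16.7 CPM in knockout cells. Every knockout value was more than 2-fold above every wild-type value, and the fitted rise was 2.90-fold (log2 1.54 ± 0.11; edgeR adjusted p = 1.28e-12). Rpl36, with 18.9% unshared windows, was at 4.46, 6.38 and 6.68 CPM and at 12.9, 13.2 and 12.9 CPM. It rose 2.22-fold without overlap (log2 1.15 ± 0.12; edgeR adjusted p = 8.43e-10). Rpl30 rose 1.95-fold, from 6.51 ± 0.747 to 12.7 ± 1.31 CPM (SD, n = 3 each; edgeR adjusted p = 6.31e-09). Rpl26, which in human cells binds the messenger RNA of the tumour suppressor p53, rose 1.94-fold, from 2.98 ± 0.627 to 5.80 ± 0.532 CPM (SD, n = 3 each; edgeR adjusted p = 2.69e-06). Neither gene's groups overlapped. Summed with its pseudogenes, Rpl26 was at 0.58 on the log2 scale when these were linked by symbol (edgeR adjusted p = 0.000378) and at 0.19 when they were linked by sequence (0.000874), against 0.96 alone. Rpl39, a small protein of the exit tunnel and the parent of Rpl39l, rose 1.34-fold (22.9 ± 1.74 to 30.6 ± 5.03 CPM; edgeR adjusted p = 0.00168), and was at 0.20 and not called on log2(TPM + 1) in limma-trend (adjusted p = 0.088).

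The falls were fewer, and the 3 deepest were in the large subunit. Rpl37a, a zinc-binding protein, was at 31.4, 29.9 and 29.6 CPM in wild-type cells and 18, 13.6 and 17.6 CPM in knockout cells. The groups were far apart and the level was 1.85-fold lower (log2 -0.89 ± 0.08; edgeR adjusted p = 1.69e-10). Rpl15, also a Diamond-Blackfan anaemia gene in humans, was at 43.6, 47.5 and 49.6 CPM and at 31.7, 26.6 and 29.6 CPM. It was 1.6-fold lower without overlap (log2 -0.68 ± 0.064; edgeR adjusted p = 2.95e-10). Rpl27a, for which a mouse mutant is known with anaemia and ataxia, was at 33.8, 33.7 and 33.1 CPM and at 20.5, 20.9 and 21.9 CPM. It was 1.59-fold lower, with replicates close together in both groups (log2 -0.67 ± 0.062; edgeR adjusted p = 1.54e-10). Rpl41, the smallest ribosomal protein and part of a bridge between subunits, fell from 412 ± 23.7 to 308 ± 17.4 CPM (SD, n = 3 each; log2 -0.42 ± 0.043; edgeR adjusted p = 1.89e-08). It was the only gene at 1000 TPM or more that fell.

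Rpl5 and Rpl11, which form a particle with the smallest ribosomal RNA and in that form can bind the p53 regulator Mdm2, both had lower means in knockout cells. Rpl11 was at 6.57, 6.66 and 7.75 CPM in wild-type cells and 5.18, 6.05 and 5.34 CPM in knockout cells. It was 1.27-fold lower (log2 -0.34 ± 0.12; edgeR adjusted p = 0.0116), without overlap, but was not called without wild-type replicate 3 or without knockout replicate 1, nor by DESeq2 (adjusted p = 0.0567). Rpl5 was at 7.13, 7.22 and 7.41 CPM and at 6.81, 6.11 and 5.78 CPM. Its groups did not overlap either, but the change of -0.22 ± 0.11 was not called (edgeR adjusted p = 0.074), although it was called without knockout replicate 1, with upper-quartile factors (-0.35, adjusted p = 0.00566), with total counts (-0.35) and on log2(TPM + 1) (-0.37). Only 6.16% of the windows of Rpl5 are found in no other gene. Rpl13a, which in human monocytes can leave the ribosome to silence messenger RNAs, and Rpl38, which in the mouse embryo favours translation of Hox messenger RNAs, had overlapping groups. Rpl13a was at 105 ± 5.05 and 107 ± 5.65 CPM (SD, n = 3 each; log2 0.02 ± 0.045, -0.12 and called with upper-quartile scaling; edgeR adjusted p = 0.72). Rpl38 was at 50.2 ± 2.10 and 51.5 ± 4.35 CPM (SD, n = 3 each; log2 0.03 ± 0.057, -0.17 and called on log2(TPM + 1); edgeR adjusted p = 0.577).

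In the small subunit, rises were moderate. Rps3, which lines the entry channel for messenger RNA, was at 1080, 1090 and 1110 CPM in wild-type cells and 1230, 1270 and 1410 CPM in knockout cells. It rose 1.19-fold without overlap (log2 0.26 ± 0.04; edgeR adjusted p = 5.88e-06). Rps19, the gene most often mutated in Diamond-Blackfan anaemia, was at 90.4, 93.6 and 89.3 CPM and at 101, 108 and 113 CPM. Its rise was 1.18-fold, also without overlap (log2 0.23 ± 0.044; edgeR adjusted p = 2.26e-05). Rps27a, made as a fusion to ubiquitin, rose 1.44-fold, from 7.96 ± 1.31 to 11.5 ± 1.80 CPM (SD, n = 3 each; edgeR adjusted p = 0.000585). Rpsa, the laminin receptor precursor, rose 1.14-fold (18.9 ± 0.343 to 21.6 ± 1.08 CPM; edgeR adjusted p = 0.0133), and was not called without wild-type replicate 1 or knockout replicate 2. It was at 0.06 with upper-quartile factors and with total counts and at -0.01 on log2(TPM + 1), called in none of these, nor by DESeq2 (adjusted p = 0.0646). On log2(TPM + 1), Rps3 (0.05), Rps19 (0.03) and Rps27a (0.31) were not called either.

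Of the small subunit genes that fell, Rps25 changed most. Rps25, needed for initiation at several viral internal ribosome entry sites, was at 63.0, 69.1 and 69.3 CPM in wild-type cells and 48.6, 49.7 and 50.5 CPM in knockout cells. It was 1.35-fold lower without overlap (log2 -0.44 ± 0.05; edgeR adjusted p = 8.64e-09). Rps18, a protein of the subunit head, was at 16.4 ± 1.03 and 13.8 ± 1.29 CPM (SD, n = 3 each; log2 -0.25 ± 0.085; edgeR adjusted p = 0.00856) and was not called without wild-type replicate 3 or without knockout replicate 3. Rps21 was at 161 ± 4.08 and 135 ± 14.8 CPM (SD, n = 3 each; log2 -0.25 ± 0.061; edgeR adjusted p = 0.0025). Rps15, a head protein and the most abundant small subunit transcript by TPM, was at 467, 488 and 501 CPM and at 475, 448 and 488 CPM. Its groups overlapped and it was not called (log2 -0.04 ± 0.035; edgeR adjusted p = 0.247). It was called lower with upper-quartile factors (-0.18, adjusted p = 6.23e-05), total counts (-0.18) and log2(TPM + 1) (-0.25).

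Paralogs encode proteins that can take the place of a standard subunit protein or resemble it. The largest change among them was in Rps27l, known in mouse and human cells as a target of p53, whose protein is nearly that of Rps27. The coding sequences of the pair, from GENCODE transcripts, are printed with the differing bases in capitals, Rps27 from chr3:90212522-90213651 (minus strand) and Rps27l from chr9:66946086-66949516 (plus strand), both gene spans on GRCm38.
Rps27: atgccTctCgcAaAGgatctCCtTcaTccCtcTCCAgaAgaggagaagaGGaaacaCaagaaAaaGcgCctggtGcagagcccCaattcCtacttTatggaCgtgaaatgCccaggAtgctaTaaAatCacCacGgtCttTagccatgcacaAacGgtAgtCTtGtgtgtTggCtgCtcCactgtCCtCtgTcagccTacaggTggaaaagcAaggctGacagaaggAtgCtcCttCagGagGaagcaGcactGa
Rps27l: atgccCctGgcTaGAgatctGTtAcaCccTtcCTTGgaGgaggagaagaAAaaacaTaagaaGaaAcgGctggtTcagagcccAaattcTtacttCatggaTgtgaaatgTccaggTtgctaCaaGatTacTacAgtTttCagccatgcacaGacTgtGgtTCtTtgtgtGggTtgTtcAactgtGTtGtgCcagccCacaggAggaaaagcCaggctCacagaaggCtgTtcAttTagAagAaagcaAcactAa
Of 255 bases, 61 differ (76.1% identity), yet only 3 of the 84 encoded residues do. The longest identical run is 11 bases, so the coding sequences share no 50-base window with each other. The transcript of Rps27 nevertheless has 1.35% unshared windows, since it shares windows with 9 other genes, 8 of them pseudogenes. That of Rps27l has 77.6%.

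Rps27l was at 23.5, 21.1 and 21.6 CPM in wild-type cells and 50.8, 55.6 and 57.2 CPM in knockout cells. Every knockout library was more than 2-fold above every wild-type library, and the fitted rise was 2.47-fold (log2 1.31 ± 0.062; edgeR adjusted p = 9.79e-17). Rps27 was at 2.28, 2.91 and 2.97 CPM and at 5.87, 5.05 and 6.22 CPM. It rose 2.09-fold without overlap (log2 1.07 ± 0.15; edgeR adjusted p = 3.82e-07). Both genes of the pair therefore rose. The log2 ratio of Rps27l to Rps27 in TPM was 3.71, 3.21 and 3.21 in wild-type cells and 3.47, 3.82 and 3.56 in knockout cells. The paralog was listed above its parent in all 6 libraries, and the difference in ratio of 0.23 lay within overlapping groups (two-sided exact permutation p = 0.3). Since only 1.35% of the windows of Rps27 are unshared, its low listed level cannot be told apart from reads assigned elsewhere or dropped.

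The other 3 tested paralogs were all listed below their parents. Rpl22l1, a paralog of the RNA-binding protein Rpl22, was at 17.1, 15.7 and 15.7 CPM in wild-type cells and 17.6, 20.0 and 20.8 CPM in knockout cells. It rose 1.2-fold without overlap (log2 0.27 ± 0.079; edgeR adjusted p = 0.00333), and its exons overlap those of Gm33051. The call was lost with upper-quartile factors (0.13, adjusted p = 0.12), with total counts (0.13, adjusted p = 0.126) and on log2(TPM + 1) in limma-trend (0.06, adjusted p = 0.438). Rpl22 was at 355 ± 14.2 and 348 ± 8.26 CPM (SD, n = 3 each) with overlapping groups (log2 -0.03 ± 0.034; edgeR adjusted p = 0.407), but was called lower with upper-quartile factors (-0.16, adjusted p = 9.26e-05), total counts (-0.17) and log2(TPM + 1) (-0.24). The log2 TPM ratio of Rpl22l1 to Rpl22 was -3.91 ± 0.11 and -3.61 ± 0.096 (SD, n = 3 each), higher in all 3 knockout libraries (two-sided exact permutation p = 0.1, the smallest possible).

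Rpl7l1, which in yeast has a relative that acts in ribosome assembly, moved against its parent Rpl7. Rpl7l1 was at 80.1, 78.4 and 81.5 CPM in wild-type cells and 73.9, 71.0 and 72.4 CPM in knockout cells. It was 1.11-fold lower, a small change with no overlap (log2 -0.14 ± 0.043; edgeR adjusted p = 0.00325). Rpl7 was at 310, 315 and 316 CPM and at 405, 421 and 434 CPM. It rose 1.34-fold (log2 0.42 ± 0.033; edgeR adjusted p = 5.92e-12), again without overlap. The log2 TPM ratio went from -2.35 ± 0.03 to -2.92 ± 0.07 (SD, n = 3 each; two-sided exact permutation p = 0.1). Rpl36al, a close copy of Rpl36a whose exons overlap those of Gm49383, was at 3.32 ± 0.782 and 3.77 ± 0.173 CPM with overlapping groups (log2 0.18 ± 0.17; edgeR adjusted p = 0.31). Rpl36a rose 1.55-fold, from 6.54 ± 0.57 to 10.2 ± 1.02 CPM (SD, n = 3 each; edgeR adjusted p = 7.28e-06). The log2 TPM ratio of the pair was -0.71 ± 0.21 and -1.14 ± 0.21 (SD, n = 3 each), lower in all 3 knockout libraries (two-sided exact permutation p = 0.1). The exact p-values of the 4 ratios cannot pass an adjustment at this number of libraries.

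**Figure D5:**
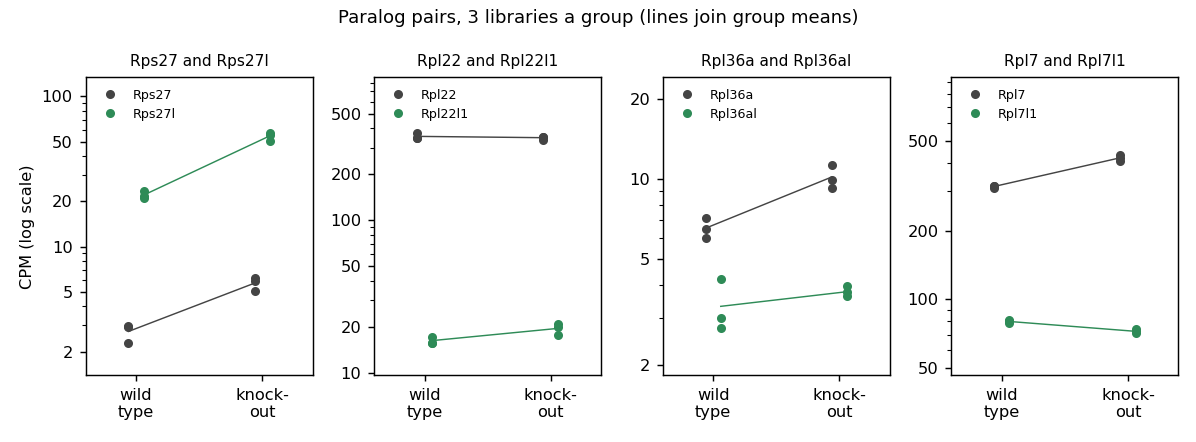
CPM (y axis, log scale, a scale of its own in each panel) of 4 parent genes (grey) and their paralogs (green) in 3 wild-type and 3 knockout libraries, with lines joining the group means. Rps27l lies above Rps27 in all libraries, whereas the other 3 paralogs lie below their parents. Rpl7l1 goes down where Rpl7 goes up.

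Paralogs known from other tissues were near the limit of these libraries. Rpl39l, known from the testis, had 0 counts in all 6. Rpl10l, also known from the testis, had 1 count in knockout replicate 1. Rpl3l, known from heart and skeletal muscle, had 1 count in each of 3 libraries (wild-type replicate 1 and knockout replicates 2 and 3). Rps27rt, a retrotransposed copy of Rps27, had 1, 1 and 1 counts in wild-type cells and 0, 2 and 3 counts in knockout cells, and 8.92% of its windows are unshared. None of the 4 was tested.

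Start sites were read for the 65 genes that matched the RefSeq promoter table (GRCm38.p6) by symbol. A gene with several annotated starts was read at the start with the longest run, on the gene's own strand. A run of at least 6 bases that are all C or T, beginning or ending within 3 bases of the annotated start or spanning it, was found for 29 of 65 genes (44.6%) and for 5188 of 26960 other genes (19.2%). A run of A and G, which is the same pattern on the opposite strand, was found for 6 genes (9.23%) and for 5714 other genes (21.2%). Windows of 30 bases, 15 before the start and 15 from it, are shown for 4 genes with a run that rose or fell strongly and for Rps27 and its paralog, with the run in capitals (that of Rpl27a goes on beyond the window).
Rpl35a: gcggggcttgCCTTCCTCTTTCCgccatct
Rpl12: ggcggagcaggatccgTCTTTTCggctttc
Rpl15: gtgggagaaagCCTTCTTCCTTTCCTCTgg
Rpl27a: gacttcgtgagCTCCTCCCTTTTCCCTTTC
Rps27: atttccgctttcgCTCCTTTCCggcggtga
Rps27l: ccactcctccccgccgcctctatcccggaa
They stand at chr16:33056467-33056496 (plus), chr2:32961697-32961726 (plus), chr14:18270972-18271001 (minus), chr7:109519180-109519209 (plus), chr3:90213634-90213663 (minus) and chr9:66946071-66946100 (plus). Rpl35a and Rpl12 rose while Rpl15 and Rpl27a fell, so a run stood at the start of genes that moved either way. Of 27 tested genes with a run, 16 rose (59.3%) and 5 fell (18.5%), with a median log2 change of 0.31. Of 34 tested genes without one, 16 rose (47.1%) and 7 fell (20.6%), with a median of 0.18. Among all tested genes 41.3% were higher and 40.9% lower. The window of Rps27l holds C and T bases further before the start. Within 3 bases of the start its longest run of C and T was 5 bases, under the 6 required here.

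Genes that work with the ribosome were followed as well. Rack1, the scaffold on the small subunit head, rose (2110 ± 77.9 to 2800 ± 224 CPM; log2 0.41; edgeR adjusted p = 4.32e-06). Fau, which encodes a small subunit protein as a fusion, was at 27.7 ± 1.81 and 30.6 ± 3.21 CPM and was not called (log2 0.14; edgeR adjusted p = 0.0683). SDs are over 3 libraries a group here and in the lists that follow. Counts of the lists on log2(TPM + 1) were added after seeing the data. The counts in each list stand against 41.3% of all tested genes higher and 40.9% lower. Those on log2(TPM + 1) stand against 31.7% higher and 50.7% lower.

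Of 19 translation factor and related genes with TOP-type messenger RNAs, 16 rose, 2 fell and 1 was not called (84.2% higher, 10.5% lower, median log2 change 0.37). On log2(TPM + 1), 10 rose and 5 fell. Pabpc1, the main cytoplasmic poly(A)-binding protein, rose from 3840 ± 32.4 to 8030 ± 105 CPM (log2 1.06; edgeR adjusted p = 6.24e-22). Eif4a2, an initiation helicase, rose from 155 ± 3.85 to 316 ± 12.5 CPM (log2 1.03; edgeR adjusted p = 1.81e-19). Both are larger than the changes of most ribosomal protein genes. The 2 that fell were Nap1l1, a histone chaperone (394 ± 4.75 to 226 ± 4.75 CPM; log2 -0.80; edgeR adjusted p = 3.89e-18), and Eif4b, a cofactor of the helicase (985 ± 5.81 to 667 ± 14.9 CPM; log2 -0.56; edgeR adjusted p = 1.7e-15).

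Of 38 ribosome biogenesis genes, 29 rose, 5 fell and 4 were not called (76.3% higher, 13.2% lower, median log2 change 0.39), and on log2(TPM + 1) 23 rose and 8 fell. Rrp9, which binds the small nucleolar RNA U3, rose from 28.5 ± 1.01 to 95.4 ± 6.67 CPM (log2 1.74; edgeR adjusted p = 1.93e-20). Bop1, which processes large subunit RNA, rose from 54.9 ± 1.28 to 127 ± 5.75 CPM (log2 1.21; edgeR adjusted p = 3.97e-19). Heatr1 (log2 1.12) and Wdr75 (log2 1.11), both of the complex that starts small subunit assembly, rose too. Of 15 RNA polymerase I genes, 5 rose, 8 fell and 2 were not called (33.3% higher, 53.3% lower, median -0.24). On log2(TPM + 1), 4 rose and 9 fell. The initiation factor Rrn3 rose from 65.2 ± 1.53 to 161 ± 6.67 CPM (log2 1.30; edgeR adjusted p = 2.12e-20). The subunit genes Cd3eap (log2 -1.72), Polr1b (log2 -0.93) and Polr1d (log2 -0.90) fell.

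Of 19 genes of mTORC1 and of TOP regulation, 18 were tested, Mycn being at 0 counts. Of these, 7 rose, 8 fell and 3 were not called (38.9% higher, 44.4% lower, median log2 change -0.06), shares near those of all tested genes. On log2(TPM + 1), 6 rose and 11 fell. Larp1, which binds the TOP tract, rose from 440 ± 10.8 to 677 ± 14.7 CPM (log2 0.62; edgeR adjusted p = 5.77e-16). Rheb, the small GTPase that activates mTORC1, rose from 111 ± 4.33 to 171 ± 3.05 CPM (log2 0.62; edgeR adjusted p = 3.77e-14). Myc, a transcription factor known to raise ribosome production, fell from 488 ± 1.66 to 207 ± 15.7 CPM (log2 -1.24; edgeR adjusted p = 5.15e-19). Eif4ebp2, a translation repressor that mTORC1 inactivates, fell from 155 ± 1.69 to 85.9 ± 1.3 CPM (log2 -0.86; edgeR adjusted p = 2.44e-17). Eif4ebp1, a repressor of the same kind named after its values were seen, rose from 316 ± 5.58 to 658 ± 51.9 CPM (log2 1.06; edgeR adjusted p = 9.52e-14). Of 13 genes of ribosome quality control and hibernation, 8 rose and 5 fell (61.5% and 38.5%, median 0.27), and on log2(TPM + 1) 5 rose and 5 fell. Gtpbp2, which rescues stalled ribosomes, rose from 106 ± 1.3 to 315 ± 2.56 CPM (log2 1.58; edgeR adjusted p = 3.89e-24). Ascc3, a helicase that splits collided ribosomes, rose from 74.3 ± 4.61 to 269 ± 4.84 CPM (log2 1.85; edgeR adjusted p = 5.08e-24). Hbs1l, which acts with Pelo in rescue (log2 0.52), and Habp4, which binds idle ribosomes (log2 0.95), rose as well. The 5 that fell, named after their values were seen, were Pelo itself (3 ± 0.454 to 1.69 ± 0.222 CPM; log2 -0.83; edgeR adjusted p = 0.00047), Nemf (log2 -0.43), Tcf25 (log2 -0.31), Ccdc124 (log2 -0.20) and Map3k20 (log2 -0.15).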

How the data were processed

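RNA was measured in 6 libraries. The authors deposited 1 table of whole-number counts and 1 of TPM, which are counts divided by gene length and scaled to a common total. The 12 tables deposited per library held the same values as the tables of the whole series. Named without roles or settings in the submitters' processing notes are featureCounts 2.0.1, STAR 2.7.8a and the build GRCm38. Not given in the sources used here are the annotation, the strand setting and the treatment of reads with several matches.

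Of 55487 gene IDs, 55141 matched GENCODE release M21 (GRCm38). Genes were filtered with filterByExpr and tested on counts with edgeR's quasi-likelihood F test (two-sided, robust, TMM factors), and p-values were adjusted by Benjamini-Hochberg over 13022 genes, with a threshold of 0.05. SEs of log2 changes come from the change and its F statistic. CPM use TMM-adjusted library sizes. Shares and ratios were compared by exact permutation. Another 7 rows that match the symbol rule are not protein-coding and were left out. Pseudogenes were linked by symbol or by sharing at least 10% of their 31-base windows with a transcript. Shared sequence was sought only in annotated transcripts.

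Named members are the paralogs with their parents, the 8 largest called rises and 8 largest called falls at 5 CPM or more in the higher group, the 5 highest by TPM and 13 chosen for their role. From each of 6 lists up to 4 called genes with the smallest adjusted p are named. Some genes that this rule takes are not reported here. The members and lists were chosen with earlier results of these data known. In counts simulated for 13022 genes, 100 genes were changed by 1.5-fold and another 100 by 2-fold. The test recovered 80% of the 1.5-fold and 92% of the 2-fold changes, with 15 calls among unchanged genes. Far fewer genes were altered there than the 10711 called between the real groups. Error rates and scaling under such widespread change were not tested.

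Alternatives were RLE and upper-quartile factors, total counts, DESeq2, limma-voom, no filter, a filter of 1 CPM, the replicate number as a block, a minimum change of 1.2-fold (glmTreat), log2(TPM + 1) or log2(TPM + 0.1) in limma-trend, pseudogenes added to their parents and leaving out each library. Tests ran in R 4.3.3 with DESeq2 1.42.0, limma 3.58.1 and edgeR 4.0.16, and permutations in SciPy 1.17.1 under Python 3.11.15.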

Additional observations from a re-analysis of the deposited data

How the results depend on the processing

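Counts of 45 higher and 14 lower genes were the same with RLE factors, limma-voom, a filter of 1 CPM and pseudogenes added by symbol. On log2(TPM + 1) and log2(TPM + 0.1), 28 and 28 were higher and 25 and 25 lower. Upper-quartile factors and total counts gave 24 and 24 lower, and the test against a 1.2-fold change gave 5 lower. These scalings shift all genes, since the median of all genes moved by -0.13, -0.14, -0.19 and -0.21 on the log2 scale under upper-quartile factors, total counts, log2(TPM + 1) and log2(TPM + 0.1). DESeq2 called 41 higher and 11 lower. Of the 45 rises 27, and of the 14 falls 5 (Rpl15, Rpl27a, Rpl37a, Rpl41 and Rps25), were called in the same direction in all 20 fits. In all fits but the 1.2-fold test, 28 rises and 9 falls were kept. Across the RLE, upper-quartile, total-count and TPM fits, 28 of the 45 rises and all 14 falls were kept. The share of all tested genes called in every fit was not counted.

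Rpl3 turned to -0.02 and -0.02 and Rpsa to -0.01 and -0.01 on the 2 TPM scales. Rpl38 turned to -0.17 and -0.18 on them. Rpl13a turned to -0.12 and -0.12 with upper-quartile factors and total counts and to -0.19 and -0.19 on the TPM scales. Rps6 turned to 0.38 and 0.36 with pseudogenes added by symbol and by sequence, the latter chosen after seeing the data. The cause was not tested beyond the shift of the median of all genes. Changes that lost or gained a call without turning sign, among them Rplp1, Rpl4, Rpl22, Rpl22l1, Rpl39, Rpl5 and Rps15, and the smaller change of Rpl26 with its pseudogenes added, are given beside each gene.

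Leaving out each library gave 41 to 47 higher and 10 to 14 lower genes. The difference in the share of counts ran from 0.127 to 0.183 percentage points. The differences in log2 TPM ratio ran from 0.24 to 0.36 for Rpl22l1, from -0.52 to -0.31 for Rpl36al, from -0.60 to -0.54 for Rpl7l1 and from 0.13 to 0.40 for Rps27l.

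Replicate numbers are shared between the groups. Over all tested genes, same-numbered libraries did not deviate together (correlations -0.00742 to 0.0416). The share of counts in ribosomal protein genes, however, was highest in replicate 3 of both groups (1.48% in wild type and 1.68% in knockout). Whether the numbers pair the libraries for these genes alone was not tested. With the replicate number as a block, 47 genes were higher and 13 lower. Genes with few counts or little unshared sequence, such as Rps6, Rps27, Rpl24 and Rpl5, are the least certain. With 3 libraries a group an exact p cannot go below 0.1.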

Other observations

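Counts were also listed on pseudogenes of the ribosomal protein genes. Where the sequences are nearly the same, such counts cannot be told apart from reads of the parent gene. Of 1068 pseudogenes linked to a member by symbol or sequence, 927 had at least 1 count and 81 were tested. Of these, 19 rose, 2 fell and 60 were not called in edgeR's quasi-likelihood test (25.9% called, against 82.3% of all tested genes). Pseudogenes linked by sequence took 0.0906% ± 0.0016 of counts in wild-type and 0.104% ± 0.0054 in knockout libraries (SD, n = 3 each, two-sided exact permutation p = 0.1, the smallest possible).

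For 3 pseudogenes, named after their values were seen, more counts were listed than for the parent gene. Gm15772, on chromosome 5 (3236431 to 3236868, plus strand), had 7851 counts against 438 for Rpl26 and differs from its coding sequence at 2 of 438 bases. It was at 73.4 ± 2.23 and 81.6 ± 5.61 CPM (SD, n = 3 each), a log2 change of 0.15 (edgeR adjusted p = 0.00524) where Rpl26 changed by 0.96. Rpl3-ps1, on chromosome X (13202571 to 13203780, plus strand), had 4326 counts against 1855 for Rpl3 and differs at 2 of 1209 aligned bases. Its groups overlapped at 42.1 ± 3.54 and 43.2 ± 5.01 CPM (SD, n = 3 each; log2 0.04; edgeR adjusted p = 0.664). Rps6-ps1 was at 31.5, 32.1 and 29.6 CPM in wild-type and 43.9, 39.3 and 40.7 CPM in knockout libraries. It rose 1.33-fold without overlap (log2 0.41 ± 0.059; edgeR adjusted p = 5.03e-07).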
